A study of Drosophila melanogaster with 10 samples.

Results

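The genes described here are the core of the sex determination and dosage compensation pathway of the fly, namely Sxl, tra, tra2, dsx, fru, msl-2, mle, lncRNA:roX1 and lncRNA:roX2. They were picked by FlyBase symbol from the table of read counts, and all 9 were found among its 17676 genes. The libraries came from type II neuroblasts (NB II) and their descendants, which were sorted from brains of 96 h old larvae. The methods section names a later age. Cells were selected by forward and side scatter as well as by GFP fluorescence. The larvae of all libraries were raised at the same temperature. All larvae expressed UAS-mCD8::GFP under wor-GAL4 with ase-GAL80, a combination that limits expression to NB II lineages. There were 3 libraries of control NB II (Ctr/Ctr), 4 of Brat-depleted NB II (brat-KD/Ctr, with UAS-brat-IR, called Brat-depleted cells from here), in which loss of the fate determinant Brat makes the lineages grow as tumors, and 3 labelled brat-KD/Spt5-KD, where an siRNA against the transcription elongation factor Spt5 was added to the brat hairpin. The sex of the larvae is not given in the sources used here, and no library of known sex was analysed.

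In female flies, the RNA-binding protein Sex-lethal (Sxl) is switched on by the dose of X-linked activators. Sxl directs the splicing of tra, whose protein acts with Tra2 to splice dsx and fru into their female forms, and it blocks the translation of msl-2. Males lack Sxl protein and make Msl-2, which joins Msl-1, Msl-3, Mof, the helicase Mle and the noncoding roX RNAs in the MSL complex that raises transcription from the single male X. Both roX RNAs are known as male RNAs after embryogenesis, while Sxl, tra, dsx, fru and msl-2 are transcribed in both sexes and differ by splicing or translation. Counts per gene do not separate these splice forms.

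The brat transcript was at 880 to 1002 CPM (the count scaled by library size) in control NB II, at 130 to 214 in Brat-depleted cells and at 290, 106 and 236 in libraries labelled brat-KD/Spt5-KD. The Spt5 transcript was at 227, 198 and 181.5 CPM in control NB II, at 128 to 165 in Brat-depleted cells and at 205.3, 116 and 584 in libraries labelled brat-KD/Spt5-KD. Replicates 1 and 3 of the latter were above every Brat-depleted library, which goes against the label, but replicate 1 lay within the control range. Brat-depleted cells themselves had 1.44-fold less Spt5 than the control (edgeR adjusted p = 0.0232, a call that held in 9 of 15 alternative fits). Replicate 1 of the control and replicate 1 of brat-KD/Spt5-KD stood apart from the other libraries of their genotype (Spearman correlation over genes 0.895 to 0.897 against 0.987, and 0.801 against 0.934), and totals ran from 2158058 counts in brat-KD/Spt5-KD replicate 3 to 9753111 in control replicate 2. The summed level of 8 neuroblast markers was 1680 to 1902 CPM in the control, 3400 to 3816 in Brat-depleted cells and 1727 to 2249 in libraries labelled brat-KD/Spt5-KD, and that of 10 neuronal markers was 1374 to 1720, 336 to 425 and 332 to 447. Sums of 6 hemocyte markers were 32.7 to 93.5, 1.70 to 4.89 and 90.7 to 112 CPM, but different genes made them up. Pxn had 32.3 to 88.9 CPM in the control and at most 7.56 in libraries labelled brat-KD/Spt5-KD, whereas Col4a1 had at most 4.86 and 69.2 to 80.7, Hml 0 and 6.55 to 16.0, and NimC1 was at 0 in all libraries. Sums of 8 glial markers were 454 to 558, 354 to 449 and 450 to 512, with repo at 0 in control replicate 1 and in brat-KD/Spt5-KD replicate 1, and sums of 5 fat body markers stayed at or below 44.2. The part of these cell types in the results below was not tested, and in bulk samples fewer cells of a type and less RNA per cell cannot be told apart.

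Brat-depleted cells had 5.79-fold more fru transcript and 1.87-fold more tra than control NB II, and 5.35-fold less roX2 and 1.52-fold less mle. Sxl, tra2, dsx, msl-2 and roX1 did not pass the threshold in that comparison. roX1 was 2.17-fold lower in libraries labelled brat-KD/Spt5-KD than in Brat-depleted cells and 2.89-fold lower than in the control, and it was the only 1 of the 9 to pass in either of these comparisons. These 4 calls of 9 stand beside 28.1% of all 8785 genes tested between Brat-depleted and control NB II (13.8% higher and 14.3% lower), and the single calls of 9 beside 11.6% of 8750 genes (5.71% lower) against Brat-depleted cells and 7.29% of 8506 (3.32% lower) against the control. The groups did not overlap for 5, 4 and 6 of the 9 genes, in this order of comparisons, beside 38.8%, 29.4% and 34.1% of all genes tested. The median log2 fold change of the 9 was −0.44, −0.29 and −0.56, beside −0.02, −0.05 and −0.01 over all genes tested. The comparisons share libraries, so they are not independent of each other. Without brat-KD/Spt5-KD replicate 1, which stood apart, 3 of the 9 passed against Brat-depleted cells (Sxl, fru and roX1) and 4 against the control (these and msl-2). The calls over all genes rose as well in these fits, to 26.3% of 9158 genes and 16.7% of 9012.

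**Figure D1:**
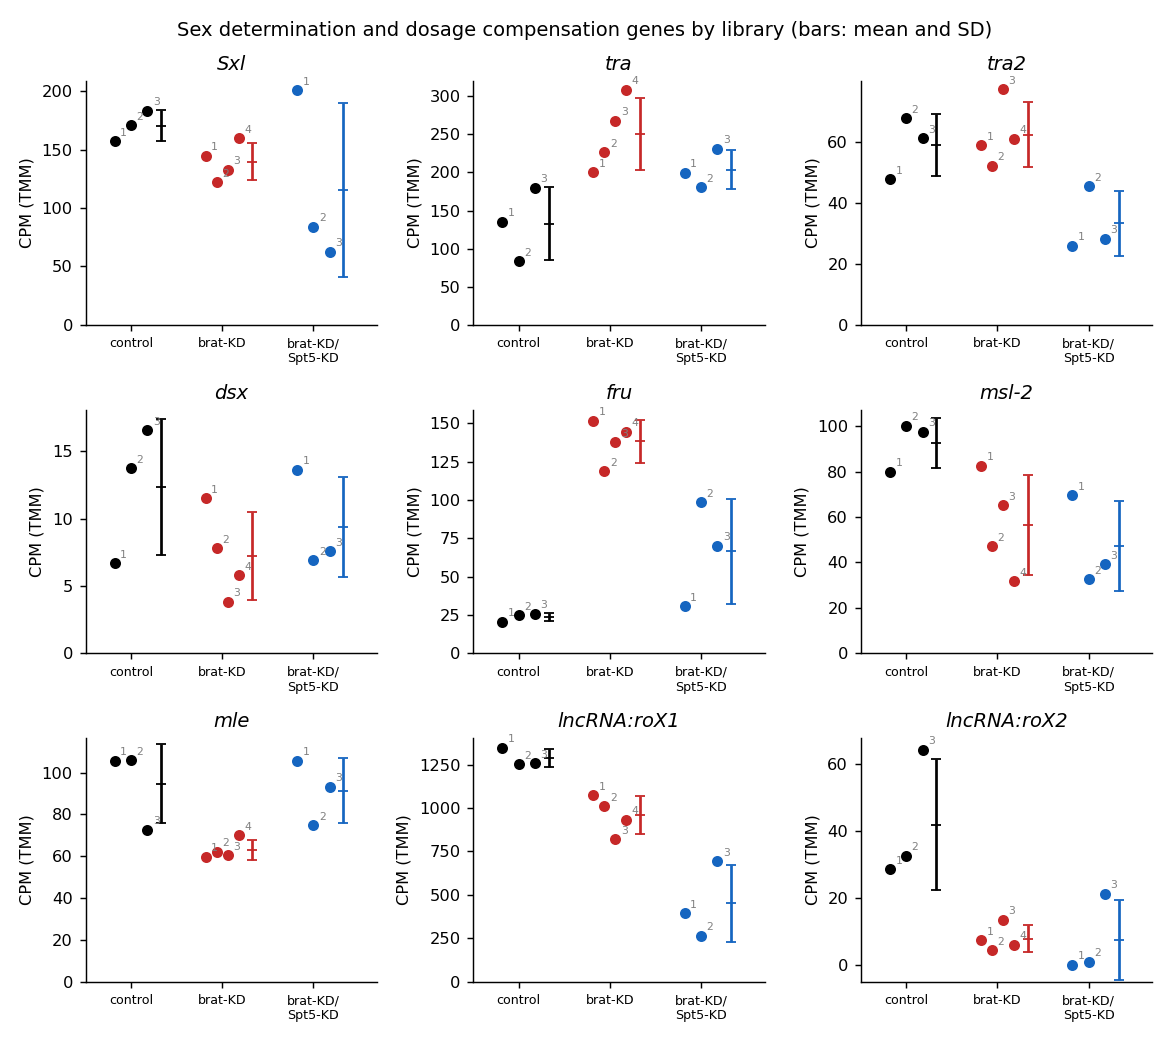
Level of each of the 9 genes in every library, in CPM after TMM scaling (y axis, from 0 or from the lower end of an error bar), for control NB II (black), Brat-depleted cells (red) and libraries labelled brat-KD/Spt5-KD (blue). Points carry the replicate number and bars give the mean and SD. The 4 Brat-depleted libraries sit between 119 and 152 CPM for fru, far above the control at 20.7 to 25.9, and roX1 is lowest in libraries labelled brat-KD/Spt5-KD.

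**Figure D2:**
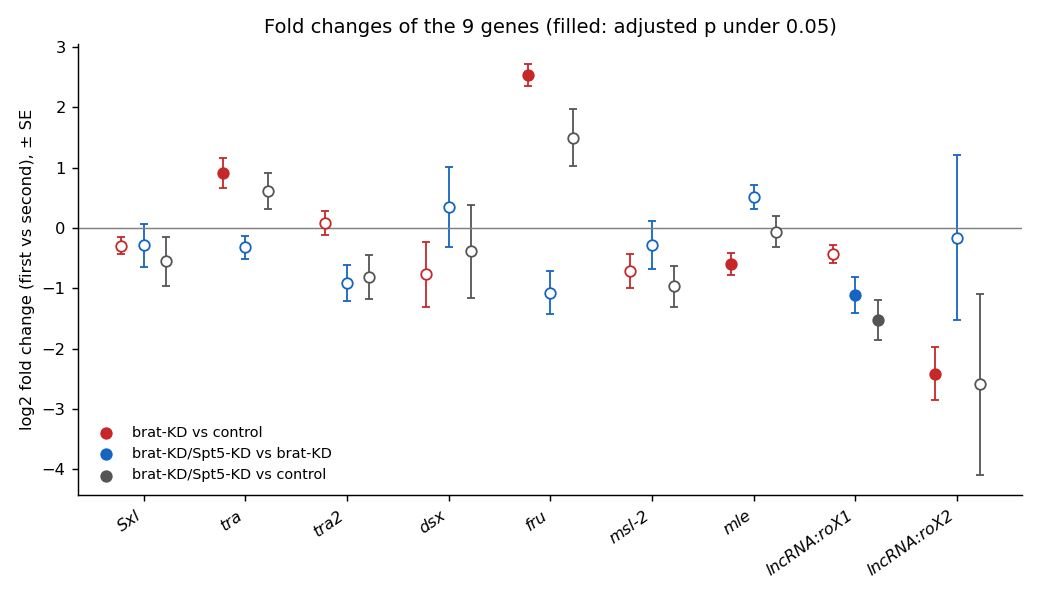
Log2 fold change (y axis) with its SE for the 9 genes (x axis) in the 3 comparisons, from edgeR's quasi-likelihood fits. Filled points have an adjusted p under 0.05, which holds for tra, fru, mle and roX2 between Brat-depleted and control NB II and for roX1 in both comparisons of libraries labelled brat-KD/Spt5-KD.

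Sxl (chromosome X, 7074550 to 7098053, minus strand) did not differ past the threshold in any comparison. Its level was 157, 171 and 183 CPM in control replicates 1 to 3, 145, 122, 133 and 160 in Brat-depleted replicates 1 to 4, and 201, 83.9 and 62.5 in brat-KD/Spt5-KD replicates 1 to 3. Replicate 1 of the latter was thus the highest of all 10 libraries and its replicates 2 and 3 were the lowest. The log2 fold change was −0.30 ± 0.14 (SE) between Brat-depleted and control NB II (adjusted p = 0.15), −0.29 ± 0.36 between brat-KD/Spt5-KD and Brat-depleted cells (adjusted p = 0.671) and −0.56 ± 0.41 against the control (adjusted p = 0.517). When brat-KD/Spt5-KD replicate 1 was left out, the last 2 became −0.93 (adjusted p = 0.00515) and −1.198 (adjusted p = 0.015), both past the threshold.

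The tra gene (chromosome 3L, 16590059 to 16591050, minus strand) encodes the splicing regulator that Sxl switches on in females, and its level was higher in Brat-depleted cells. The control libraries had 135, 83.6 and 180 CPM, the Brat-depleted ones 201, 227, 268 and 309, and those labelled brat-KD/Spt5-KD 199, 181 and 231. Every Brat-depleted library lay above the highest control, and the log2 fold change was 0.90 ± 0.25 (adjusted p = 0.02). This call was lost without Brat-depleted replicate 3 (adjusted p = 0.0535) or 4 (adjusted p = 0.059). Between brat-KD/Spt5-KD and the control the libraries did not overlap either, by a narrow margin, but the log2 fold change of 0.61 ± 0.30 did not pass (adjusted p = 0.294). A stretch of 74 bp of tra lies on the opposite strand of l(3)73Ah, whose 34 to 346 counts were fewer than the 458 to 2028 of tra. Against Brat-depleted cells the log2 fold change of tra was −0.32 ± 0.19 (adjusted p = 0.33).

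Tra2, the partner of Tra on the dsx and fru pre-mRNAs, is made in both sexes. The tra2 gene (chromosome 2R, 14602004 to 14604337, minus strand) was at 47.7, 67.6 and 61.0 CPM in control NB II, at 58.8, 52.0, 77.1 and 60.9 in Brat-depleted cells and at 25.9, 45.4 and 28.2 in libraries labelled brat-KD/Spt5-KD. Each of the latter was below every other library. Its log2 fold change was 0.08 ± 0.20 between Brat-depleted and control NB II (adjusted p = 0.822), −0.92 ± 0.30 between brat-KD/Spt5-KD and Brat-depleted cells (adjusted p = 0.0841) and −0.81 ± 0.37 against the control (adjusted p = 0.254). The middle value passed without brat-KD/Spt5-KD replicate 2 (−1.25, adjusted p = 0.0426) and in DESeq2 (adjusted p = 0.0368).

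The transcription factor gene dsx (chromosome 3R, 7924323 to 7967408, minus strand), whose male and female proteins carry out somatic sexual differentiation, had few reads, 15 to 132 counts per library. Its level was 6.71, 13.7 and 16.6 CPM in control NB II, 11.5, 7.80, 3.83 and 5.81 in Brat-depleted cells, and 13.7, 6.92 and 7.56 in libraries labelled brat-KD/Spt5-KD. The genotypes overlapped in every comparison, with log2 fold changes of −0.77 ± 0.54 (adjusted p = 0.327), 0.35 ± 0.66 (adjusted p = 0.796) and −0.39 ± 0.77 (adjusted p = 0.857). A stretch of 169 bp of dsx overlaps lds on the other strand. With 249 to 869 counts, lds had more reads than dsx in each library, so the counts of dsx are uncertain.

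The fru gene (chromosome 3R, 18414273 to 18545586, minus strand) encodes BTB zinc finger proteins, whose male-specific forms direct courtship and whose other forms are made in both sexes. It was at 20.7, 24.7 and 25.9 CPM in control NB II and at 152, 119, 138 and 145 in Brat-depleted cells. This was a log2 fold change of 2.53 ± 0.18 (adjusted p = 1.53e-05), and the call held in each of the 15 alternatives. Libraries labelled brat-KD/Spt5-KD had 30.6, 98.4 and 70.1 CPM, all of them between the control and Brat-depleted cells, with replicate 1 close to the control. They differed from Brat-depleted cells by −1.07 ± 0.36 (adjusted p = 0.0875) and from the control by 1.49 ± 0.48 (adjusted p = 0.106), neither of which passed. Without brat-KD/Spt5-KD replicate 1 both passed, at −0.71 (adjusted p = 0.0221) and 1.85 (adjusted p = 0.00741), and without replicate 2 the first of them did, at −1.52 (adjusted p = 0.0405). No other gene of the annotation overlaps fru apart from a transposon copy. The neuroblast markers were also higher in Brat-depleted cells and past the threshold for 7 of 8 genes tested, beside 13.8% of all genes tested, with the proneural gene ase lower. Any link of these markers to fru was not tested.

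The msl-2 gene (chromosome 2L, 3462218 to 3466112, minus strand) encodes the male-limiting subunit of the MSL complex. It was at 80.0, 100.2 and 97.5 CPM in control NB II, at 82.6, 47.1, 65.1 and 31.7 in Brat-depleted cells, and at 69.7, 32.7 and 39.3 in libraries labelled brat-KD/Spt5-KD. The Brat-depleted libraries spread over 2.60-fold, and replicate 1 reached into the control range. The log2 fold change against the control was −0.71 ± 0.28 (adjusted p = 0.0819) for Brat-depleted cells, and it passed without control replicate 1 (−0.79, adjusted p = 0.0477) or Brat-depleted replicate 1 (−0.95, adjusted p = 0.0346). In libraries labelled brat-KD/Spt5-KD its value was −0.97 ± 0.34 (adjusted p = 0.133), with no overlap. The small gene mir-4971 lies within msl-2 on the same strand and had 151 counts of its own in brat-KD/Spt5-KD replicate 1, where msl-2 had 296, against 0 to 68 in the other libraries. With these counts taken off msl-2, the log2 fold change against the control was −1.32 and passed (adjusted p = 0.0314). Taking them off is right only if reads of mir-4971 were also counted for msl-2, which is not known. Without that replicate the log2 fold change passed as well (−1.36, adjusted p = 0.0122). The log2 fold change between brat-KD/Spt5-KD and Brat-depleted cells was −0.28 ± 0.39 (adjusted p = 0.707).

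The helicase gene mle (chromosome 2R, 5974857 to 5980778, minus strand), whose protein remodels roX RNA so that the complex can form, overlaps no other gene. Its level was 106, 106 and 72.7 CPM in control NB II, 59.7, 62.2, 60.6 and 70.1 in Brat-depleted cells, and 106, 74.9 and 93.3 in libraries labelled brat-KD/Spt5-KD. The Brat-depleted libraries were the lowest of the 10 and lay close together, with the highest 1.17 times the lowest. They differed from the control by a log2 fold change of −0.60 ± 0.18 (adjusted p = 0.0289). The call was lost in 7 of 15 alternatives, among them leaving out control replicate 2 (−0.49, adjusted p = 0.15) or Brat-depleted replicate 1, 2 or 3 (adjusted p = 0.0639 to 0.0808). Against Brat-depleted cells, libraries labelled brat-KD/Spt5-KD differed by 0.51 ± 0.20 (adjusted p = 0.14), and against the control by −0.06 ± 0.26 (adjusted p = 0.94).

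The gene for roX1 (chromosome X, 3857230 to 3862697, minus strand) was the most abundant of the 9 by reads. The control libraries had 1347, 1253 and 1259 CPM, the Brat-depleted ones 1072, 1010, 820 and 932, and those labelled brat-KD/Spt5-KD 394, 264 and 693. The 3 genotypes formed a descending series without overlap, in which the control libraries differed by 1.08-fold from lowest to highest and those labelled brat-KD/Spt5-KD by 2.62-fold. From control NB II to Brat-depleted cells it had a log2 fold change of −0.44 ± 0.15 and an adjusted p of 0.0502, just outside the threshold (DESeq2 gave an adjusted p of 0.00604). Libraries labelled brat-KD/Spt5-KD differed from Brat-depleted cells by −1.12 ± 0.30 (adjusted p = 0.043) and from the control by −1.53 ± 0.33 (adjusted p = 0.0355). Both calls were lost when brat-KD/Spt5-KD replicate 2 was left out (−0.86, adjusted p = 0.0856, and −1.27, adjusted p = 0.0901). The former call was also lost without any single Brat-depleted library (adjusted p = 0.0992 to 0.14), and the latter without any single control library (adjusted p = 0.105 to 0.139), while the log2 fold changes stayed between −1.57 and −0.86 and between −2.03 and −1.27. A stretch of 392 bp of roX1 overlaps ec on the other strand, which had 60 to 346 counts against 1220 to 12030 for roX1.

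The second RNA, roX2 (chromosome X, 11579065 to 11580432, plus strand), shares its role with roX1 and overlaps no annotated gene. It had 28.6, 32.6 and 64.3 CPM in control NB II and 7.33, 4.41, 13.5 and 5.98 in Brat-depleted cells, where the highest library was below the lowest control. This gave a log2 fold change of −2.42 ± 0.44 (adjusted p = 0.00216), and the call held in 14 of 15 alternatives, the exception being a fit of all 3 genotypes at once (adjusted p = 0.183). Over the same pair of genotypes the summed neuronal markers also did not overlap. Of the 10 markers, 8 passed the threshold and were lower, beside 14.3% of all genes tested. Any link of these markers to roX2 was not tested.

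Libraries labelled brat-KD/Spt5-KD disagreed among themselves on roX2. Replicate 1 had no count (exact 95% binomial interval 0 to 0.868 CPM, counting error only). The limit of 3 counts used here is 0.706 CPM in that library. Replicate 2 had 4 counts (0.865 CPM, interval 0.236 to 2.22) and replicate 3 had 42 counts (21.2 CPM, interval 15.3 to 28.6). With roX2 set to the limit of 3 counts, replicate 1 was 59.3-fold below the control mean and 6.24-fold below the lowest Brat-depleted library. The upper end of its interval would make both folds smaller. Also in this replicate, the pathway genes run and msl-3 were near 0 (0.235 and 0.471 CPM, against 22.7 to 36.1 and 19.7 to 22.5 in replicates 2 and 3). Pof was higher there (89.2 CPM, against 28.6 and 31.8). Loss of reads in this library and lower expression cannot be told apart. Replicate 3 was above every Brat-depleted library, although it was the shallowest. The fitted log2 fold change of roX2 over these libraries was −0.16 ± 1.37 against Brat-depleted cells (adjusted p = 0.962) and −2.59 ± 1.501 against the control (adjusted p = 0.388). In the latter comparison the libraries did not overlap.

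The 2 roX RNAs did not move in a fixed proportion. The number of roX1 counts per roX2 count was 47.1, 38.4 and 19.6 in control NB II, 146, 229, 60.9 and 156 in Brat-depleted cells, and 559, 305 and 32.7 in libraries labelled brat-KD/Spt5-KD. The 559 takes roX2 as 3 counts in replicate 1, where it had none. All 4 Brat-depleted libraries were above the control, by 2.01 on the log2 scale with 0.5 added to each count (two-sided exact permutation p = 0.0571, the smallest that 3 against 4 libraries can give). Libraries labelled brat-KD/Spt5-KD overlapped both other genotypes, from 1 within the control range to 2 above every Brat-depleted library, and neither difference passed the threshold (exact p = 0.571 against Brat-depleted cells and 0.3 against the control). Adjusted over the 3 pairs of genotypes, the p-values were 0.171, 0.571 and 0.45. Since roX1 and roX2 ordered the libraries differently, their levels were not converted into a share of male cells.

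**Figure D3:**
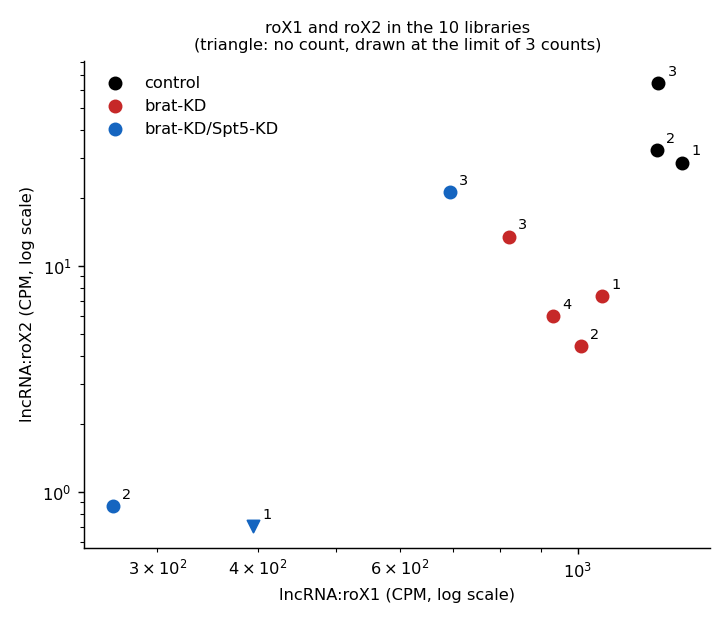
roX2 (y axis) against roX1 (x axis) in each library, both in CPM on log scales, with the replicate number beside each point. The control libraries (black) sit at the top right, the Brat-depleted ones (red) have less of both, and those labelled brat-KD/Spt5-KD (blue) spread from 21.2 CPM of roX2 in replicate 3 to no count in replicate 1, which is drawn as a triangle at 0.706 CPM.

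Per kilobase of exon, the order of the genes in control NB II was roX1 (235 ± 9.64 CPM per kb, mean ± SD), tra (154 ± 55.9), tra2 (31.9 ± 5.51), roX2 (30.6 ± 14.3), msl-2 (24.1 ± 2.86), mle (20.4 ± 4.10), Sxl (18.5 ± 1.42), dsx (1.35 ± 0.555) and fru (1.29 ± 0.148). The values from tra2 to Sxl lie within about 1 SD of their neighbors, as do dsx and fru. In Brat-depleted cells tra was first (291 ± 55.0), ahead of roX1 (175 ± 19.9), and fru (7.50 ± 0.767) stood above roX2 (5.70 ± 2.90), within its spread, and above dsx (0.790 ± 0.358), outside it. In libraries labelled brat-KD/Spt5-KD tra (236 ± 29.3) was again ahead of roX1 (82.4 ± 40.2).

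The other genes of the pathway, 39 in all, were taken as 4 lists. Over all genes tested, the medians in the 3 comparisons were −0.02, −0.05 and −0.01. The first list holds the X-linked signals that start Sxl transcription and their partners. Of its 7 tested genes 3 passed between Brat-depleted and control NB II, beside 28.1% of all genes tested. In the comparisons of libraries labelled brat-KD/Spt5-KD, 1 passed against Brat-depleted cells and 2 against the control, beside 11.6% and 7.29%. The repressor gene dpn, an autosomal counterweight to the X signals and a neuroblast marker, rose by 1.08 ± 0.14 on the log2 scale (adjusted p = 0.000321). The runt gene run, one of the X-linked activators, was 1.24 ± 0.22 lower on that scale, from 64.4 to 116 CPM in the control to 30.0 to 42.5 (adjusted p = 0.00212). The gene emc, which encodes an inhibitor of bHLH activators, ranged over 180 to 197 CPM among control libraries and 52.2 to 87.1 among Brat-depleted ones (log2 fold change −1.34 ± 0.18, adjusted p = 0.000405). Libraries labelled brat-KD/Spt5-KD had at most 81.0 CPM of emc and were also below the control (−1.63 ± 0.32, adjusted p = 0.0277), a call lost without any single control library or brat-KD/Spt5-KD replicate 3 (adjusted p = 0.0724 to 0.127). In libraries labelled brat-KD/Spt5-KD the corepressor gene gro was at 181, 183 and 208 CPM, against 332 to 440 in Brat-depleted cells (adjusted p = 0.00842) and 362 to 400 in the control (adjusted p = 0.0192, lost without control replicate 2 or 3 or brat-KD/Spt5-KD replicate 2 at 0.0655 to 0.129). The median log2 fold change of this list was 0.20 between Brat-depleted and control NB II, −0.61 between brat-KD/Spt5-KD and Brat-depleted cells and −0.36 between brat-KD/Spt5-KD and the control.

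Among 9 genes for Sxl splicing and m6A methylation of its RNA, snf, which encodes a U1 and U2 snRNP protein needed for Sxl autoregulation, went both ways. It was at 161, 178 and 193 CPM in control NB II, 57.6, 112, 81.2 and 91.0 in Brat-depleted cells (log2 fold change −1.07 ± 0.20, adjusted p = 0.00277) and 122, 268 and 254 in libraries labelled brat-KD/Spt5-KD (1.32 ± 0.31 relative to Brat-depleted cells, adjusted p = 0.0283). The latter call was lost without Brat-depleted replicate 1, 3 or 4 or brat-KD/Spt5-KD replicate 2 or 3 (adjusted p = 0.0718 to 0.0869). The m6A reader gene Ythdc1 was lower in Brat-depleted cells (−0.51 ± 0.13, adjusted p = 0.0141) and in brat-KD/Spt5-KD against the control (−0.85 ± 0.19, adjusted p = 0.0388). The methylation complex gene vir was higher in Brat-depleted cells (0.84 ± 0.25, adjusted p = 0.0281). The call for vir was lost without control replicate 3 or any single Brat-depleted library (adjusted p = 0.0526 to 0.0663), and that for Ythdc1 in these cells without control replicate 2 or 3 (adjusted p = 0.0847 to 0.087). The other call for Ythdc1 was lost without any single control library or brat-KD/Spt5-KD replicate 2 or 3 (adjusted p = 0.0611 to 0.202). In the 3 comparisons 3, 1 and 1 of the 9 genes passed, beside 28.1%, 11.6% and 7.29% of all genes tested, and the medians were −0.41, −0.17 and −0.45.

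Of 8 tested partners of tra, dsx and fru, 3 passed in Brat-depleted cells against the control and 3 in brat-KD/Spt5-KD against Brat-depleted cells, all 3 of the latter lower. Against the control, 2 passed in brat-KD/Spt5-KD. The shares over all genes tested were 28.1%, 11.6% (5.71% lower) and 7.29%. Doa, which encodes a kinase of splicing factors including Tra, had 109 to 144 CPM in the control, 201 to 246 in Brat-depleted cells (0.87 ± 0.15, adjusted p = 0.00147) and 89.8 to 142 in libraries labelled brat-KD/Spt5-KD (−1.01 ± 0.19 relative to Brat-depleted cells, adjusted p = 0.0139, lost without Brat-depleted replicate 1 or 4 at 0.0554 and 0.0571). The gene for bon, a cofactor that joins Fru on chromatin, had 153 to 233 CPM in Brat-depleted cells and 72.0 to 98.3 in those labelled brat-KD/Spt5-KD (−1.16 ± 0.21, adjusted p = 0.0109). The gene for the heterochromatin protein HP1a, part of the Fru repressor complex, was lower in Brat-depleted cells (−0.96 ± 0.15, adjusted p = 0.000959). The BTB factor gene lola was lower in all 3 comparisons, with 1687 to 1988 CPM in the control, 1146 to 1382 in Brat-depleted cells (adjusted p = 0.0165) and 601 to 874 in libraries labelled brat-KD/Spt5-KD (adjusted p = 0.0379 and 0.0151). The calls for lola were lost without control replicate 2 or 3 between Brat-depleted and control NB II (adjusted p = 0.0611 to 0.101), without any single Brat-depleted library or brat-KD/Spt5-KD replicate 2 or 3 against Brat-depleted cells (0.0559 to 0.14), and without control replicate 2 or 3 or brat-KD/Spt5-KD replicate 2 against the control (0.0592 to 0.0968). HDAC1, which encodes a histone deacetylase recruited by Fru, had 314 to 394 CPM in libraries labelled brat-KD/Spt5-KD and 562 to 717 in the control (−0.83 ± 0.18, adjusted p = 0.0385), a call lost without any single control library or brat-KD/Spt5-KD replicate 2 or 3 (0.0738 to 0.221). The medians of this list were −0.42, −0.60 and −0.74.

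The list of the MSL complex, its targeting and msl-2 translation had 11 tested genes, of which 4 passed in Brat-depleted cells against the control, all of them higher, beside 28.1% of all genes tested (13.8% higher). The median log2 fold change of the list was 0.34 there, −0.60 between brat-KD/Spt5-KD and Brat-depleted cells, and −0.02 between brat-KD/Spt5-KD and the control. The 4 were msl-1, the scaffold of the complex (0.63 ± 0.20, adjusted p = 0.0391), the nucleoporin genes Nup153 (0.83 ± 0.20, adjusted p = 0.0114) and Mgtor (0.48 ± 0.15, adjusted p = 0.0343), and the topoisomerase gene Top2 (0.53 ± 0.17, adjusted p = 0.036). Nup153, Mgtor and Top2 are general nuclear genes that also act outside dosage compensation. The calls for msl-1 and Mgtor were lost without control replicate 2 or 3 or any single Brat-depleted library (adjusted p = 0.0535 to 0.136), and that for Top2 without control replicate 1 or 3 or Brat-depleted replicate 1 or 3 (adjusted p = 0.0636 to 0.135). Libraries labelled brat-KD/Spt5-KD had less Top2 than Brat-depleted cells (−0.78 ± 0.20, adjusted p = 0.0364), a call lost without any single Brat-depleted library or brat-KD/Spt5-KD replicate 2 or 3 (adjusted p = 0.0638 to 0.125). Against the control, edgeR's quasi-likelihood test called 0 of the 11 in these libraries, beside 7.29% of all genes tested. DESeq2 called 1 of the 11 and 1347 genes in all. An unadjusted p under 0.05 was found for 1 of the 11, which was not counted over all genes.

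**Figure D4:**
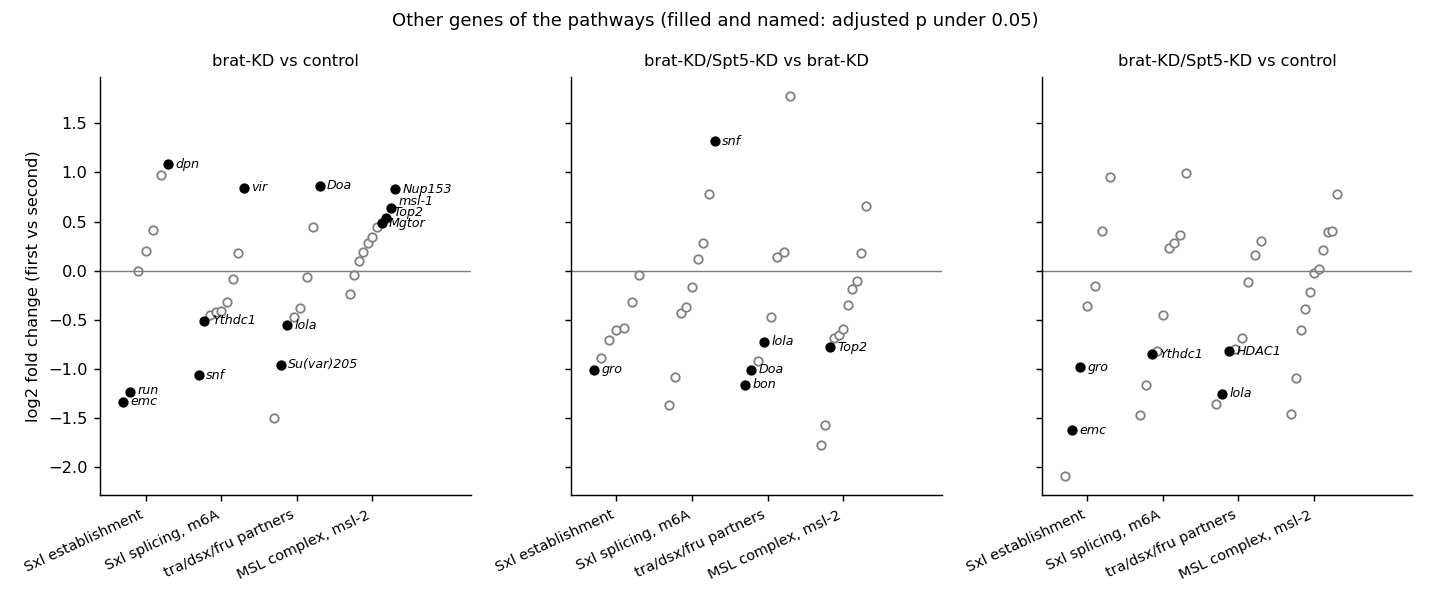
Log2 fold change (y axis) of each tested gene in the 4 pathway lists (x axis, genes sorted within a list) for the 3 comparisons. Filled and named points have an adjusted p under 0.05 in edgeR's quasi-likelihood test. In Brat-depleted cells against the control the 4 filled points of the MSL list all lie above 0, between 0.48 and 0.83, beside 13.8% of all genes tested that passed and were higher.

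The X chromosome, on which the MSL complex acts, took 20.3, 19.1 and 18.6% of the counts in control NB II, 15.5, 15.9, 16.7 and 17.5% in Brat-depleted cells and 22.7, 19.5 and 20.8% in libraries labelled brat-KD/Spt5-KD. The Brat-depleted libraries lay below all others (two-sided exact permutation p = 0.0571 against each of the other genotypes, the smallest possible, 0.0857 after adjustment over the 3 pairs, and 0.2 between control NB II and libraries labelled brat-KD/Spt5-KD). Leaving out the 10 X-linked genes with the most counts reduced the difference from the control from −2.93 to −1.51 percentage points, and that from libraries labelled brat-KD/Spt5-KD from 4.58 to 2.68. Gene by gene the X moved little. The median log2 fold change of X-linked genes was −0.06, −0.09 and −0.06 in the 3 comparisons, beside −0.01, −0.04 and 0.01 for chromosomes 2 and 3, and 28.4%, 12.9% and 6.53% of X-linked genes passed the threshold, close to the shares over all genes.

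Chromosome 4, which was singled out after its values were seen, is bound by Pof, a protein that regulates genes of this chromosome in both sexes. Of 84 tested genes on chromosome 4, 26 were lower and 2 higher in Brat-depleted cells than in the control, with a median log2 fold change of −0.61 (−0.71 to −0.47 over the alternatives). These calls made up 33.3% of the chromosome's genes, beside 28.1% of all genes tested (14.3% lower and 13.8% higher). In libraries labelled brat-KD/Spt5-KD the median against the control was −0.65 (−0.83 to −0.52), with 9 of 85 genes lower and 1 higher. That was 11.8% of its genes, beside 7.29% of all genes tested (3.32% lower). Relative to chromosomes 2 and 3, the median ratio to the control mean was 0.20, −0.08 and −0.18 in the control libraries themselves, −0.34 to −0.65 in Brat-depleted cells and −0.25, −0.95 and −0.70 in those labelled brat-KD/Spt5-KD. The lowest control library was thus above every other library on this measure. Pof was at 14.0, 38.7 and 34.5 CPM in the control at 29.1 to 34.4 in Brat-depleted cells and at 89.2, 28.6 and 31.8 in those labelled brat-KD/Spt5-KD, where replicate 1 was the highest of all 10 libraries. It did not pass the threshold in any of the 3 comparisons.

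**Figure D5:**
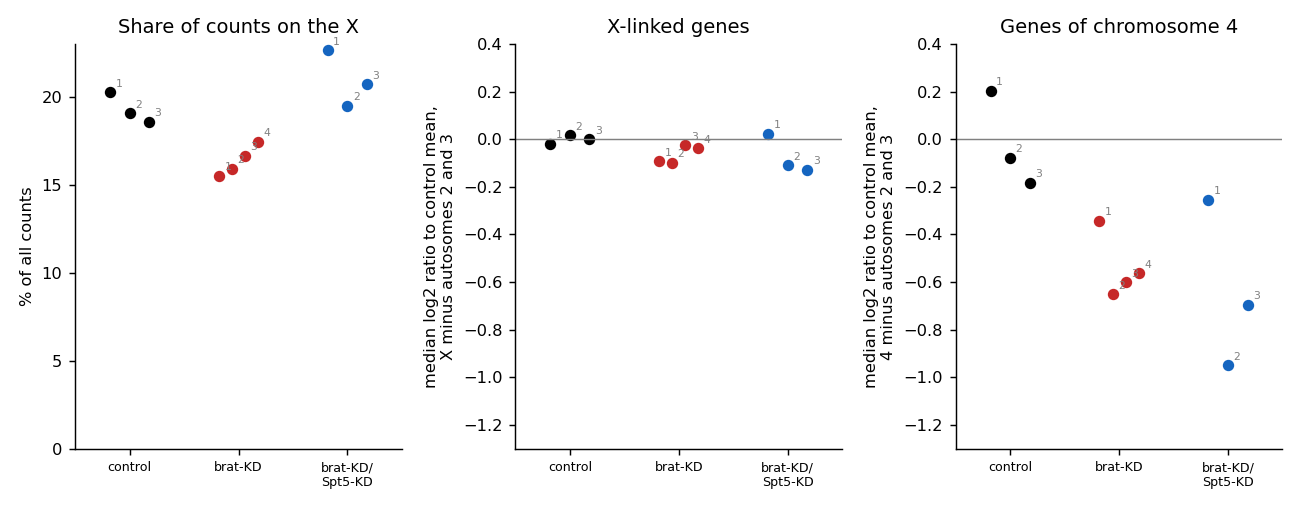
Left, share of all counts on X-linked genes in each library (y axis, percent, from 0). Middle and right, median log2 ratio to the control mean for genes of the X and of chromosome 4, each minus the same median for chromosomes 2 and 3 (y axis, the same scale in both). The X stays between −0.13 and 0.02 while chromosome 4 reaches −0.95 in brat-KD/Spt5-KD replicate 2.

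Genes of the Y chromosome were read in every library. The summed level of 12 Y-linked genes was 273 to 475 CPM in control NB II, 258 to 393 in Brat-depleted cells and 635 to 1151 in libraries labelled brat-KD/Spt5-KD, with ARY, Pp1-Y1 and Pp1-Y2 at 0 throughout. Of the 7 or 8 tested, 1 was higher and 2 lower between Brat-depleted and control NB II, 5 were higher between brat-KD/Spt5-KD and Brat-depleted cells, and 1 was higher between brat-KD/Spt5-KD and the control. The shares passing over all genes tested, in either direction, were 28.1%, 11.6% and 7.29%. The genes named next were chosen after their values were seen. The dynein gene kl-5 was at 46.4, 105 and 112 CPM in the control, 2.03 to 6.81 in Brat-depleted cells and 170, 492.8 and 245 in libraries labelled brat-KD/Spt5-KD (adjusted p = 6.64e-05 between Brat-depleted and control NB II and 0.00218 between brat-KD/Spt5-KD and Brat-depleted cells). In contrast, WDY rose from 18.6 to 27.9 CPM in the control to 40.3 to 92.1 in Brat-depleted cells (adjusted p = 0.00281). Like kl-5, WDY was highest in libraries labelled brat-KD/Spt5-KD, at 108 to 243 CPM. It passed there against Brat-depleted cells (adjusted p = 0.0349, held in 9 of 15 alternatives) and the control (adjusted p = 0.00676, held in 13 of 14). Ppr-Y had 94.9 to 210 CPM in the control, 96.0 to 180 in Brat-depleted cells and 92.3 to 136 in libraries labelled brat-KD/Spt5-KD. FDY has a near-identical autosomal copy, and its counts are uncertain. The order of the genotypes by kl-5 was thus not that by roX1 or roX2. The 3 yolk protein genes, which the female fat body makes, summed to at most 17.3 CPM in any library.

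By likeness across the 10 libraries, measured as the SD of the log2 ratio of each gene to the member (2 added to each count, 5601 or 5602 genes compared), the gene nearest to fru was Myc (SD 0.24, where fru itself varied with an SD of 1.18), followed by PsGEF (0.34) and tai (0.35). The nearest to roX1 was pan (0.24), a gene of chromosome 4, and then asRNA:CR31514 and Pgant7 (0.26 each), and the nearest to msl-2 was Ephrin (0.23), also on chromosome 4, then CASK (0.27) and dsh (0.29). For mle it was sei (0.12), spg (0.17) and Sap-r (0.20), for Sxl Vps24 (0.16), promL and msn (0.18 each), and for tra2 wcy (0.15), CG43867 (0.16) and Helz (0.19). The nearest to tra were FBgn0267727 (0.29), CG8765 (0.30) and CG30159 (0.31), and to dsx Klp64D, APC10 and Tapdelta (0.34 each, before rounding in this order). No gene came close to roX2, the nearest being Rx (0.91), RhoGAP100F (0.97) and VhaAC45RP (1.06).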

How the data were processed

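The authors prepared directional libraries from polyadenylated RNA, mapped the reads to BDGP6 (dm6) with bowtie2 and deposited counts of reads per gene without normalization. Libraries were not all amplified with the same number of PCR cycles, and the paper does not say which had more. The cycle number could thus differ between genotypes or replicates, and its part in the results was not tested. The submitters' processing notes also name FastQC and edgeR 3.26.8. The counting program and its annotation are not given in the sources used here. Coordinates and overlaps came from the Ensembl annotation of BDGP6 (release 115), which held 17549 of the 17676 genes.

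Each pair of genotypes was fitted separately with edgeR 4.0.16 (TMM, filterByExpr, quasi-likelihood test) in R 4.3.3. Adjusted p-values are Benjamini-Hochberg values over all genes tested, with a threshold of 0.05. CPM values used TMM factors over all 10 libraries. The procedure was tested on simulated data, where it missed part of the changed genes in each comparison and most of them in those of libraries labelled brat-KD/Spt5-KD, so a gene that did not pass may still differ. On the same data DESeq2 recovered more of the changed genes but made more false calls in each comparison. A gene that passed in DESeq2 alone is therefore less certain. Alternatives were DESeq2 1.42.0, its size factors, total counts, no filter on low counts, a minimum of 10 counts in all libraries, a joint fit of the genotypes, the replicate number as a block, counts of nested genes taken off, and each library left out in turn. Single values per library were compared by exact permutation tests in scipy 1.17.1.

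The members and lists were chosen with earlier results of these data known. The genes named besides the 9 are brat, Spt5, genes of the pathway lists past the threshold without overlap whose mean log2 CPM reached 4, and the 3 genes nearest to each member. Pof, msl-3, the Y-linked genes and the cell type markers named singly fall outside this rule and were chosen after their values were seen. Nothing states that libraries of a genotype came from separate crosses or days, so p-values measure only the spread between these libraries. Total counts were 2158058 to 9753111 per library, and 3 counts were taken as the limit of detection.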

Additional observations from a re-analysis of the deposited data

How the results depend on the processing

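Leaving out 1 library at a time gave 1691 to 3229 genes past the threshold (2467 with all libraries) and 2 to 5 of the 9 genes (4) between Brat-depleted and control NB II, 334 to 2408 genes (1017) and 0 to 3 of the 9 (1) between brat-KD/Spt5-KD and Brat-depleted NB II, and 64 to 1504 genes (620) and 0 to 4 of the 9 (1) between brat-KD/Spt5-KD and the control. The highest counts in the last 2 comparisons came without brat-KD/Spt5-KD replicate 1. In the same order of comparisons, the median log2 fold change of X-linked genes ran from −0.093 to −0.00693, −0.147 to −0.0414 and −0.161 to −0.0309, and the log2 ratio of roX1 to roX2 differed by 1.64 to 2.38, −0.494 to 2.85 and 1.52 to 4.86, the negative value without brat-KD/Spt5-KD replicate 1. Some uncalled log2 fold changes turned sign, and those of the 9 genes, brat and Spt5 are given here. Genes of the pathway lists also had such changes, which are not listed. For tra2 the range was −0.0470 to 0.215 between Brat-depleted and control NB II. Between brat-KD/Spt5-KD and Brat-depleted NB II it was −0.00522 to 0.702 for dsx, −4.09 to 0.421 for roX2 and −0.0210 to 0.574 for brat. Between brat-KD/Spt5-KD and the control it was −0.216 to 0.0420 for mle and −0.399 to 0.928 for Spt5.

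With all 3 genotypes in 1 fit, 1250 genes and 2 of the 9 passed between Brat-depleted and control NB II, and 1450 genes and 2 of the 9 between brat-KD/Spt5-KD and the control. DESeq2 called 1648 genes and 3 of the 9 between brat-KD/Spt5-KD and Brat-depleted NB II and 1347 genes and 2 of the 9 against the control. With a minimum of 10 counts in all libraries, 2 of the 9 passed between brat-KD/Spt5-KD and Brat-depleted NB II, where the X-linked median became −0.00205, and roX2 was not tested in libraries labelled brat-KD/Spt5-KD. With nested genes taken off, 2 of the 9 passed between brat-KD/Spt5-KD and the control. That fit assumes that reads of a nested gene were also counted for the outer gene, which is not known. Without the 10 X-linked genes with the most counts, the differences in X share were −1.51 and 2.68 percentage points (−2.93 and 4.58 with them). The causes were not tested.

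Same-numbered libraries did not deviate together in each pair (correlations −0.0213 to 0.146), so the replicate numbers were not taken to pair the samples. Between brat-KD/Spt5-KD and the control, though, they were positive (0.129, 0.146 and 0.0475). There, replicate 1 of either genotype against replicate 2 or 3 of the other gave −0.159 to −0.0464, and replicates 2 and 3 across genotypes 0.0358 and 0.14. With the replicate number as a block, 1735 genes and 3 of the 9 passed between Brat-depleted and control NB II, 1 gene and 0 of the 9 between brat-KD/Spt5-KD and Brat-depleted NB II, and 232 genes and 0 of the 9 between brat-KD/Spt5-KD and the control.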
